A study of Saccharomyces cerevisiae with 7 samples.

Results

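The 10 yeast genes of the dityrosine layer and the late spore wall listed next are described by their messenger RNA levels through meiosis and spore formation. They are 10 of the 6141 rows of the deposited table and were taken by systematic name: DIT1 (YDR403W), DIT2 (YDR402C), DTR1 (YBR180W), SPS100 (YHR139C), its vegetative paralog YGP1 (YNL160W), LDS1 (YAL018C), LDS2 (YOL047C), RRT8 (YOL048C), OSW1 (YOR255W) and OSW2 (YLR054C). All 10 had a value at every time point, as did 5666 rows in all. Saccharomyces cerevisiae cultures were sampled at 1, 2, 3, 4, 5, 6 and 8 h of meiosis, and each poly(A)+ RNA was compared on a 2-colour array with a common mix of RNA from all time points. Each value is the log2 of the level relative to 0 h, so that 0 is the starting level. The sources used here do not name the strain or the medium. The series design names 3 independent cultures, but the table has 1 value per gene and time point, so the values below have no replicate error.

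A yeast spore is wrapped in a layered wall: mannan and beta-glucan inside, chitosan over them, and an outermost layer of dityrosine that protects the spore. Dit1 makes a formyl tyrosine precursor, the cytochrome P450 Dit2 joins precursors into formylated dityrosine, and the transporter Dtr1 carries the product out of the spore cytoplasm to the growing wall. Lds1, Lds2 and Rrt8 are related proteins linked to lipid droplets and needed for a normal dityrosine layer, Osw1 and Osw2 serve outer wall assembly, and Sps100 acts in late wall maturation. The transcription factor Ndt80 switches on the middle sporulation genes, which include many wall genes.

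Courses of landmark genes put the 10 genes in context. DMC1, the meiotic recombinase gene, was already at a log2 ratio of 5.23 after 1 h and ended at 4.68. NDT80 was at -0.10 after 2 h and reached 1.62 by 3 h, 4.32 by 4 h and 6.90 by 5 h. The median of all 5666 genes lay between -0.04 and 0.01 in every column, and the spread of the ratios over all genes (SD) widened to 1.48 at 5 h, against 1.05 at 4 h.

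Of the 10 genes, 9 were higher late in the course than at 0 h and YGP1 was far lower, but the 9 did not move together. Induced genes are here those with a log2 ratio of at least 1 in 2 successive samples, and repressed genes those at or below -1 in 2 successive samples. This is a fixed size and not a test. By that rule 9 members were induced, against 21.8% of all genes, and 1 was repressed, against 16.4% of all genes. A trend over the 7 values was tested with limma by fitting a parabola of time to each gene, with p-values adjusted by Benjamini-Hochberg over all 5666 genes at 0.05. A trend was upward where the fitted value at 8 h lay above that at 1 h, and downward where it lay below. An upward trend was called for 9 members, against 23.3% of all genes, and a downward trend for 1, against 25.2%. The p-values rest on how far the samples scatter about the fitted parabola, since differences between cultures cannot be seen in these columns. That scatter includes any misfit of a parabola to a course shaped like a step. Its SD was 1.74 for LDS1 and 1.55 for OSW2, against 0.21 for RRT8. How much of it is misfit was not tested. More cells at the stage of wall assembly and more RNA per cell cannot be told apart in these bulk cultures. The value was highest at 8 h in 6 of the 10 genes, against 22.9% of all genes.

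**Figure D1:**
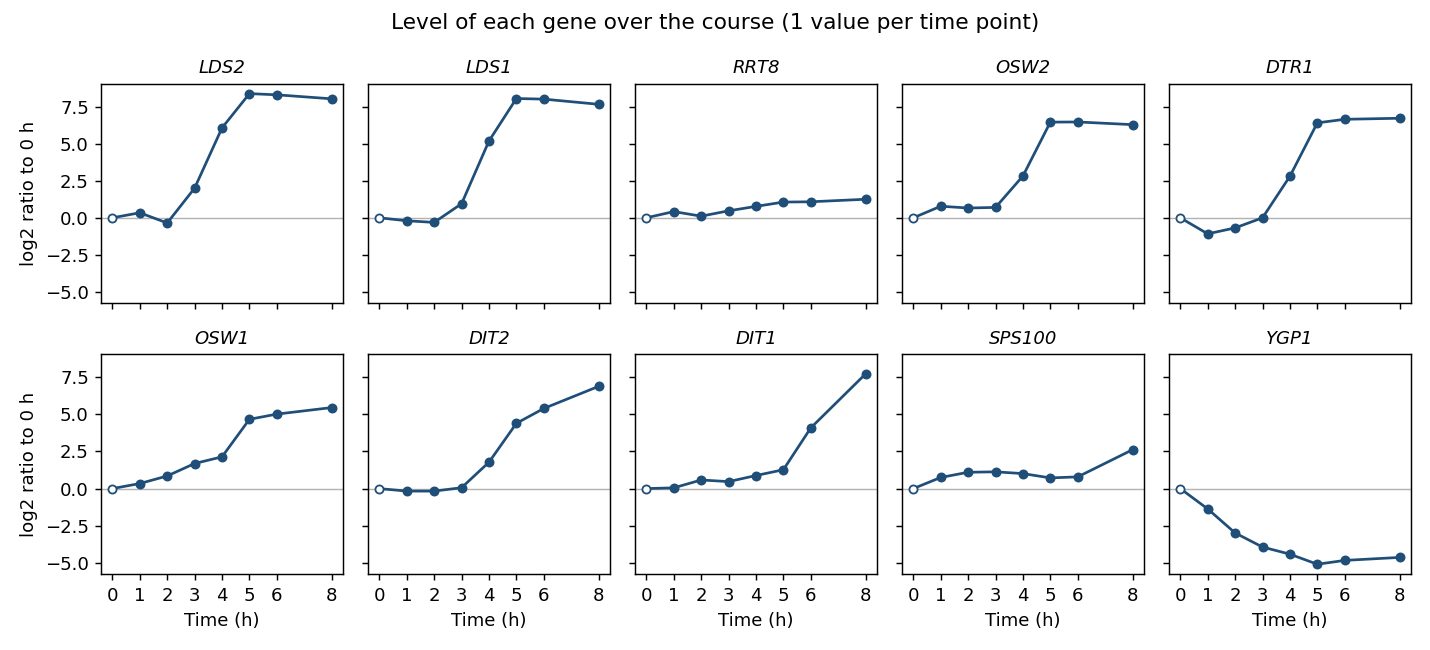
Log2 ratio to 0 h (vertical axis) against time in hours (horizontal axis) for each of the 10 genes, 1 filled point per sampled time, with the open point marking 0 h, which is 0 by definition. LDS2 and LDS1 reach 8.37 and 8.04 at 5 h and stay level, DIT1 is at 1.27 at 5 h and 7.73 at 8 h, and YGP1 falls to -5.10 at 5 h.

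DIT1, the first enzyme gene of dityrosine synthesis, stayed low through the hours in which most of the other members increased. Its log2 ratios were 0.05, 0.58, 0.47, 0.88, 1.27, 4.09 and 7.73 at hours 1, 2, 3, 4, 5, 6 and 8. The last 2 time points therefore hold most of the increase, and the 8 h value is 212-fold above 0 h. DIT1 rose by the trend test (adjusted p = 0.00249). Its increase of 2.82 from 5 h to 6 h was the highest of all 5666 genes, and its increase of 3.64 from 6 h to 8 h was second to that of YDL218W (3.78). The last interval is 2 h long, so the increase per hour was 1.82 there, against 2.82 per hour between 5 h and 6 h.

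DIT2, which encodes the next enzyme, was up earlier. Its log2 ratios were -0.17, -0.17, 0.06, 1.78, 4.40, 5.40 and 6.89 at hours 1, 2, 3, 4, 5, 6 and 8. The first clear increase was from 3 h to 4 h, and after 5 h DIT2 gained more than LDS1, LDS2, DTR1, OSW1 or OSW2. Its trend was upward (adjusted p = 0.00522), and its 8 h value is 119-fold above 0 h. The increase of DIT2 was 2.62 from 4 h to 5 h, 1.00 from 5 h to 6 h and 1.49 from 6 h to 8 h.

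DIT1 and DIT2 are neighbours on chromosome IV in the R64 annotation, on opposite strands and pointing away from each other. DIT1 minus DIT2 on the log2 scale was 0.22, 0.75, 0.41, -0.90, -3.13, -1.31 and 0.84 at hours 1, 2, 3, 4, 5, 6 and 8. DIT1 was thus well behind DIT2 at 5 h and past it at 8 h, each relative to its own 0 h level. The table gives no scale on which the 2 genes' amounts can be compared, and with 1 value per time point the difference has no test.

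DTR1, the dityrosine transporter gene, was below its 0 h level at first. Its log2 ratios were -1.08, -0.68, 0.00, 2.80, 6.40, 6.64 and 6.71 at hours 1, 2, 3, 4, 5, 6 and 8. Most of the increase took place between 3 h and 5 h, with little after that. DTR1 rose by the trend test (adjusted p = 0.00881), and at 8 h it stood 105-fold above 0 h. At 5 h the transporter gene and DIT2 were already high while DIT1 was not.

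**Figure D2:**
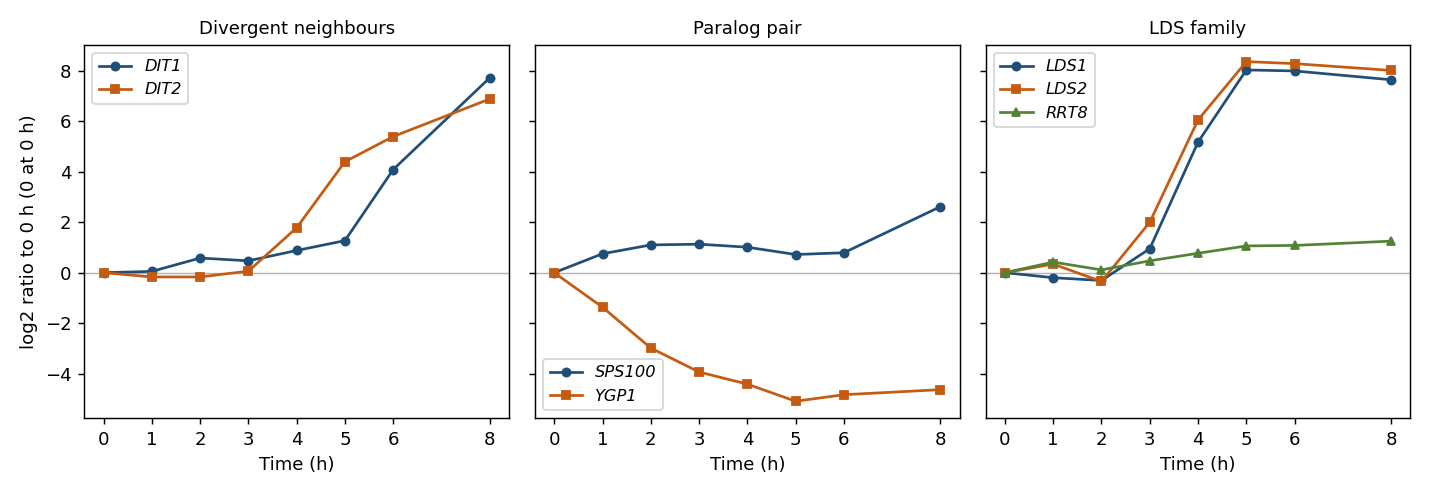
Log2 ratio to 0 h against time in hours for 3 sets of related genes: the divergent neighbours DIT1 and DIT2, the paralogs SPS100 and YGP1, and the family LDS1, LDS2 and RRT8. DIT1 lies 3.13 below DIT2 at 5 h and 0.84 above it at 8 h, SPS100 and YGP1 lie 7.26 apart at 8 h, and RRT8 stays at or under 1.25.

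The lipid droplet genes LDS1 and LDS2 had the highest peak ratios to 0 h of the 10 genes and gained most of their height by 4 h. LDS1 had log2 ratios of -0.20, -0.31, 0.95, 5.18, 8.04, 8.00 and 7.65 at hours 1, 2, 3, 4, 5, 6 and 8. LDS2 had log2 ratios of 0.34, -0.35, 2.00, 6.06, 8.37, 8.29 and 8.02 at hours 1, 2, 3, 4, 5, 6 and 8. Both were at their highest at 5 h, when LDS2 was 331-fold and LDS1 263-fold above 0 h, and both had upward trends (adjusted p = 0.0103 for LDS2 and 0.0108 for LDS1). From 3 h to 4 h the increase of LDS1 (4.23) ranked 4 and that of LDS2 (4.06) ranked 5 among all genes. LDS1 lay below LDS2 from 3 h on, by 1.05 at 3 h and 0.33 at 5 h. The 2 genes are paralogs, and whether their array probes read each other's RNA was not tested.

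RRT8, the related gene directly next to LDS2 on the same strand of chromosome XV, hardly shared that course. Its log2 ratios were 0.42, 0.11, 0.47, 0.77, 1.06, 1.08 and 1.25 at hours 1, 2, 3, 4, 5, 6 and 8. It was the least induced of the 9 genes, 2.38-fold above 0 h at 8 h, and it no longer met the rule with ratios to 1 h or with columns scaled to the same SD. The trend of RRT8 was upward (adjusted p = 0.0243), but with the 7 columns scaled to the same SD its adjusted p was 0.153, and without the 2 h, 3 h or 6 h column it lay between 0.0504 and 0.0706. LDS2 minus RRT8 came to 1.53 after 3 h, 5.29 after 4 h and 7.31 after 5 h.

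OSW1 and OSW2, both named for the outer spore wall, took different routes up. OSW1 had log2 ratios of 0.34, 0.85, 1.69, 2.14, 4.67, 5.02 and 5.46 at hours 1, 2, 3, 4, 5, 6 and 8. It climbed from the first hours and was above 1 at 3 h, when only LDS2 and SPS100 of the other members were too. OSW1 rose by the trend test (adjusted p = 0.00575). OSW2 had log2 ratios of 0.78, 0.66, 0.70, 2.82, 6.45, 6.46 and 6.28 at hours 1, 2, 3, 4, 5, 6 and 8. It was level from 1 h to 3 h and again from 5 h, with most of the increase between. OSW2 rose as well (adjusted p = 0.0202), with an adjusted p of 0.0647 without the 2 h column and 0.0547 without the 6 h column.

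SPS100, the late wall maturation gene, had a low plateau and then a late step. Its log2 ratios were 0.75, 1.10, 1.13, 1.01, 0.72, 0.79 and 2.62 at hours 1, 2, 3, 4, 5, 6 and 8. The plateau at 2, 3 and 4 h is what met the rule for induced genes, since the late step rests on the 8 h value alone, and with ratios to 1 h SPS100 no longer met the rule. That step of 1.83 from 6 h to 8 h ranked 6 among all genes, tied with the hexose transporter family gene HXT10. The upward trend of SPS100 passed narrowly (adjusted p = 0.0482), and without the 8 h column the fitted course ran downward (adjusted p = 0.279). It also missed the threshold without the 2, 3, 4 or 5 h column (adjusted p between 0.0526 and 0.0817) and with robust moderation, a linear term only or scaled columns (adjusted p = 0.0503, 0.125 and 0.340).

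YGP1, a secreted cell wall glycoprotein gene of vegetative cells and the paralog of SPS100, went the other way from the first hour. Its log2 ratios were -1.37, -2.99, -3.94, -4.42, -5.10, -4.84 and -4.64 at hours 1, 2, 3, 4, 5, 6 and 8. At 5 h it was 34.3-fold below 0 h, the level with rank 5 from the lowest of all genes. It fell by the trend test (adjusted p = 0.00249), although with columns scaled to the same SD the adjusted p was 0.0997. Its drop of 1.62 from 1 h to 2 h had rank 3 from the lowest, and it passed 50% of its lowest log2 ratio at an interpolated 1.73 h. SPS100 minus YGP1 was 2.12 after 1 h, 5.82 after 5 h and 7.26 after 8 h.

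The intervals between samples separate the members by when they moved. From 3 h to 4 h 5 members gained 1 or more on the log2 scale (LDS1, LDS2, DTR1, OSW2 and DIT2), against 1.94% of all genes. From 4 h to 5 h 6 members did (OSW2, DTR1, LDS1, DIT2, OSW1 and LDS2), against 9.35%. From 5 h to 6 h the 2 were DIT1 and DIT2, against 0.159%, and from 6 h to 8 h the 3 were DIT1, SPS100 and DIT2, against 1.66%. From 2 h to 3 h LDS2 and LDS1 gained 1 or more, against 0.6%, and from 1 h to 2 h 0 members did, against 4.77%. An increase of 1 or more both from 5 h to 6 h and again from 6 h to 8 h was shared by 2 members, DIT1 and DIT2, against 0.141% of all genes.

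**Figure D3:**
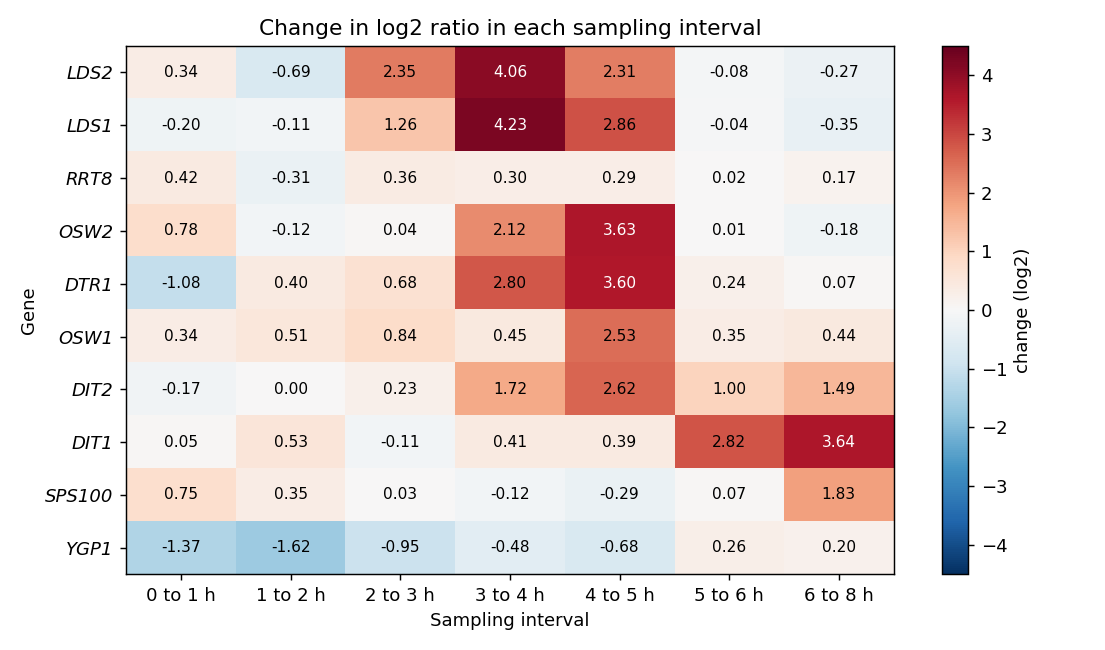
Change in log2 ratio (colour and printed number) of each gene (rows) in each sampling interval (columns), where the last interval is 2 h long. The highest increases lie at 3 to 4 h for LDS1 (4.23) and LDS2 (4.06), at 4 to 5 h for OSW2 (3.63) and DTR1 (3.60), and at 6 to 8 h for DIT1 (3.64) and SPS100 (1.83).

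To order the 9 induced members, the hour at which each crossed 50% of its own highest log2 ratio was interpolated on straight lines between samples. The last upward crossing before the highest value was taken, so a gene that reached this level earlier and dropped back is timed late. No member did so in the deposited log2 values. This midpoint hour was 3.52 h for RRT8, 3.54 h for LDS2, 3.73 h for LDS1, 4.11 h for OSW2, 4.15 h for DTR1, 4.23 h for OSW1, 4.64 h for DIT2, 5.92 h for DIT1 and 6.57 h for SPS100. For 3 members it falls in the interval from 3 h to 4 h, for 4 members in the next one, and for DIT1 and SPS100 after 5 h. Members within 1 interval are ordered by the interpolation only. By this midpoint alone, RRT8, LDS2 and LDS1 are therefore not separated from each other or from NDT80 (3.71 h). The same holds for OSW2, DTR1, OSW1 and DIT2 among themselves. The order also depends on the measure. Taken by the first of 2 successive samples at a log2 ratio of 1 or more, SPS100 came first, at 2 h. RRT8 and DIT1 came last by that measure, at 5 h.

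Among all 1236 induced genes the median midpoint hour was 3.76 h, and for 44.3% of them the midpoint lay between 4 h and 5 h. The interval up to 6 h held 25 of them (2.02%), and 4 (0.324%) were later. The rule of 2 successive samples leaves out the 94 genes that reached 1 at 8 h alone, and SPS100 met it through its early plateau, so the share of late genes is partly set by the rule. With 1 sample at 1 or more as the rule, a check added after the values were seen, 24 of 1511 genes (1.59%) had a midpoint after 6 h. In that wider set 26 genes were later than DIT1 and 5 were later than SPS100, against 6 and 0 among the 1236. Under the 4 other ways of timing, DIT1 stayed later than DIT2 in all of them, and DIT2 later than OSW1, DTR1 and OSW2. SPS100 was later than DIT1 in every one except the midpoint of the linear ratio, which gave 6.61 h for SPS100 and 6.91 h for DIT1. On that linear scale DIT2 moved to 6.45 h, from 4.64 h on the log2 scale. With columns scaled to the same SD, OSW1 moved to 2.94 h and came before LDS2 (3.19 h) and LDS1 (3.43 h), which otherwise preceded it.

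**Figure D4:**
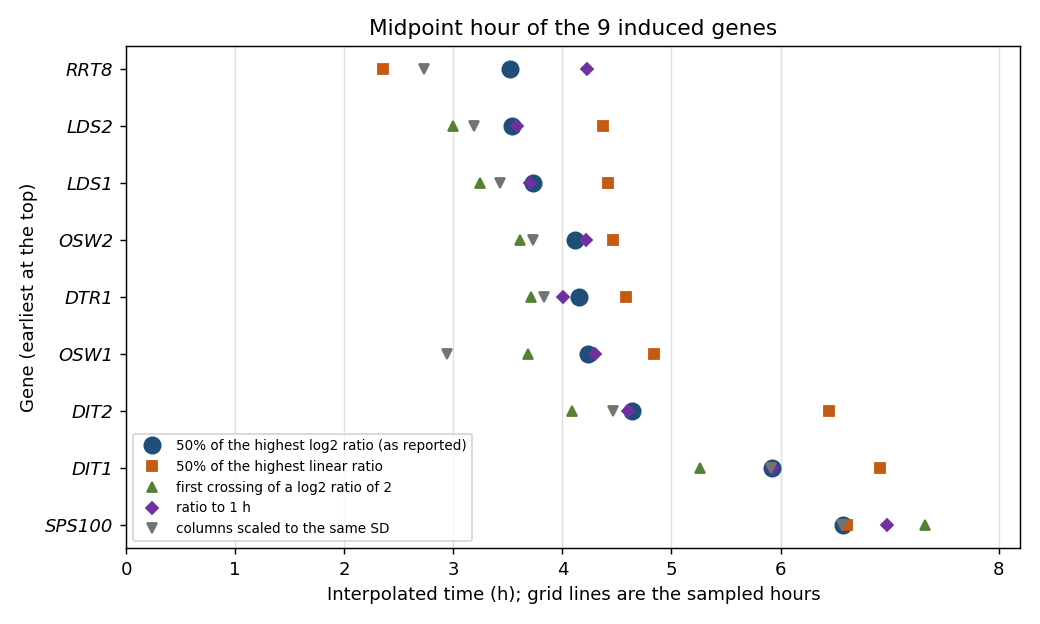
Interpolated midpoint hour (horizontal axis, hours, grid lines at the sampled times) of the 9 induced genes, earliest at the top. Large circles give the reported hour and small marks the 4 alternatives; DIT1 at 5.92 h and SPS100 at 6.57 h lie apart from the other 7, which run from 3.52 h to 4.64 h, and RRT8 has no mark for the log2 ratio of 2, which it never reached.

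The genes closest in course to each member were found as the named genes with the smallest root mean square difference over the 7 log2 values. For LDS1 they were IRC18, another spore wall gene, at a difference of 0.338, and SSP1, of the leading edge of the spore membrane, at 0.477. LDS2 lay nearest to the sporulation septin gene SPR28 (0.610) and to the chitin deacetylase gene CDA1 (0.679). OSW2 lay nearest to SPO19 (0.269) and SPO77 (0.411), and OSW1 to CRR1, a putative wall glycosidase gene (0.330), and GFA1, of the chitin precursor pathway (0.371).

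DTR1 was closest to PFS1, a gene of spore formation (0.473), and to the galactose gene GAL7 (0.510), and DIT2 to ECM8 (0.645) and ISC10 (0.646). The named genes nearest to DIT1 were farther off, SOL1 at 1.30 and CDC27 at 1.32. SOL1 was at 2.64 at 5 h and 5.09 at 8 h, higher than DIT1 at 5 h and lower at 8 h. Over all rows, named or not, the nearest to DIT1 were YDL218W (0.791), YLR012C (0.905) and YDR401W (1.11), a search added after the values were seen. SPS100 was nearest to NHP6A (0.409) and SHH3 (0.434), RRT8 to BUD5 (0.110) and MPO1 (0.124). YGP1 was nearest to the glycolytic genes TDH3 (0.409) and TDH2 (0.421), a near-identical pair whose separate values are uncertain.

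Other genes of the spore wall increased mostly in the hours of the earlier members. Their lists were fixed by name, and SSP2, SPO75, SPO77 and MUM3 stand in more than 1 of them. Of 9 measured genes of the beta-glucan layer 8 were induced, against 21.8% of all genes, and 8 had upward trends, against 23.3%. The medians of this list were 0.39 at 2 h, 2.77 at 4 h and 6.12 at 5 h. SPR1, a glucanase gene, stood at 9.23 at 8 h, and GAS4 and GAS2, glucan-remodelling genes, at 7.95 and 7.78, whereas FKS1, the vegetative glucan synthase gene, stood at -0.11. Of 8 chitosan layer genes 6 were induced, 5 had upward and 2 downward trends, the last a share near the 25.2% of all genes. CDA1 stood at 8.90 at 8 h, CDA2 at 4.57 and SHC1 at 4.23, and CHS5, which helps carry the chitin synthase Chs3 to the surface, fell to -0.93.

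All 9 measured genes of spore wall assembly signalling were induced, against 21.8% of all genes. By the trend test 8 were upward, against 23.3%, SPO73 being the exception (adjusted p = 0.0536). The kinase gene SPS1 stood at 10.23 at 8 h, AMA1 at 7.54 and SSP2 at 7.42, with SPO73 lowest at 2.09. Of 10 other outer spore wall genes 9 were induced and 8 had upward trends, beside the same shares of all genes. In that list SPS2 stood at 11.70, IRC18 at 8.35, LOH1 at 8.17 and SHE10, the lowest, at 0.29 at 8 h. The median midpoint hours of the induced genes were 4.01 h in the beta-glucan list, 3.88 h in the chitosan list, 4.26 h in the signalling list and 4.09 h in the other outer wall list. DIT1 and SPS100 were later than each of these medians. No induced gene of these 4 lists had a midpoint hour as late as that of DIT1, and the highest was 4.84 h, for OSW7. Of all 1236 induced genes only 0.485% were later than DIT1, so this does not set the lists apart. Some genes of the lists had an earlier midpoint than any member: LDO16 (0.90 h), FKS3 (0.93 h), SHC1 (0.97 h), GSC2 (1.63 h) and AMA1 (2.44 h). The chitosan gene CHS3 was at 0.84 at 2 h and 0.64 at 4 h, with 1.51 as its highest value. Its midpoint of 4.19 h, used in the chitosan median, is therefore a second crossing.

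**Figure D5:**
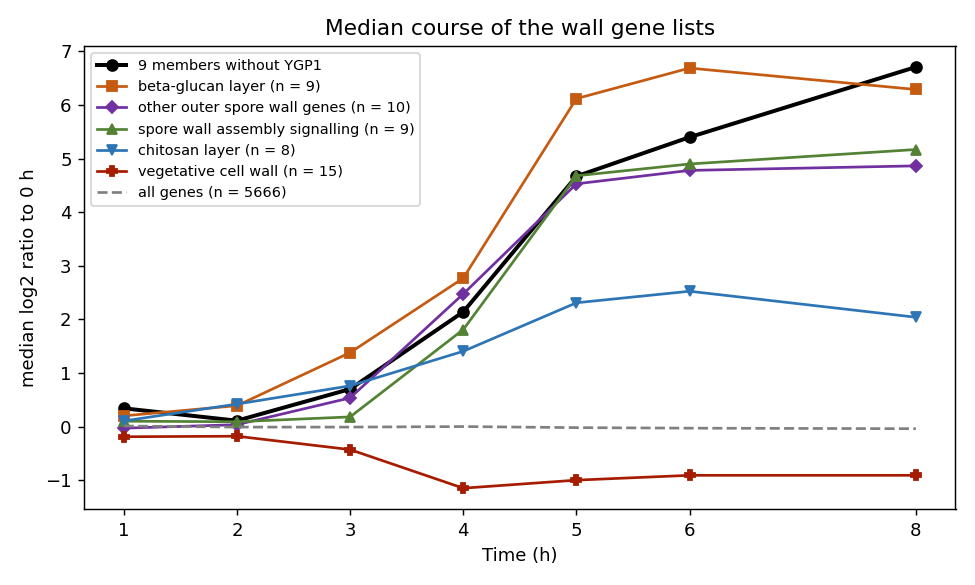
Median log2 ratio to 0 h (vertical axis) at each sampled hour (horizontal axis) for the 9 members without YGP1, 4 lists of spore wall genes, the vegetative cell wall list and all genes. At 8 h the member median is 6.71 and that of all genes -0.04, and the vegetative wall median is -0.91.

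YGP1 was not alone among vegetative wall genes, and at 8 h its ratio was below each of theirs. It had rank 11 from the lowest of all genes at that hour, so it would lie below most genes of any list. Of 15 measured genes of the vegetative cell wall 9 were repressed, against 16.4% of all genes, and 9 had downward trends, against 25.2%. The list medians were -1.15 at 4 h and -0.91 at 8 h. HSP150 was the lowest of the list at 8 h, at -2.25. Some members went up, with CCW12 at 3.25, CWP1 at 2.78 and TIR1 at 1.22 at 8 h. Of the 15, 2 (CWP1 and CCW12) were induced, against 21.8% of all genes. CWP1 first had a low of -3.50 at 3 h, and it was also repressed by the rule.

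Genes for known repressors of DIT1 and of middle genes had ratios closer to 0 than DIT1 at 8 h. So did most genes, since DIT1 ranked 37 among all 5666 at that hour, and the comparison says little about the repressors. The list holds the Tup1 and Ssn6 corepressor, Nrg1, the Rim101 pathway, Isw2 and the Sum1 complex, and 3 of its 14 measured genes were induced and 1 was repressed, shares not above the 21.8% and 16.4% of all genes. Trends were upward in 5, against 23.3% of all genes, and downward in 3, against 25.2%. RFM1 stood at 2.32, HST1 at 2.19 and ISW2 at 1.34 at 8 h, and RIM9 was lowest at -1.13. RIM101 fell (adjusted p = 0.0101), with 0.92 at 3 h as its highest value and -0.25 at 8 h as its lowest. NRG1 had its lowest value, -1.26, at 5 h and its highest, 0.26, at 8 h (adjusted p = 0.0175). TUP1 ranged from -0.54 to -0.06 (adjusted p = 0.204). The corepressor partner gene CYC8, which encodes Ssn6, rose to 0.98 at 5 h (adjusted p = 0.0348).

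Relatives and partners of DIT2 and DTR1 are given here beside the 21.8% of all genes that were induced and the 16.4% that were repressed. Of 5 measured genes of the cytochrome P450 system 0 were induced and 2 were repressed, and 2 trends were downward, against 25.2% of all genes. The P450 genes ERG5 and ERG11 stood at -2.78 and -0.52 at 8 h, and the P450 reductase gene NCP1 at -0.46 (adjusted p = 0.0707). Of 9 measured transporters of the family of Dtr1 only TPO2 was induced (2.50 at 8 h), and 2 were repressed (QDR2 and TPO1). TPO1 was low early, at -1.58 at 2 h, and stood at -0.26 at 8 h, with an upward trend (adjusted p = 0.0267). Trends were upward in 3 of the 9, against 23.3% of all genes, and downward in 3, against 25.2%. At 8 h HOL1 stood at 1.23, TPO4 at 0.02 and QDR2, the lowest, at -3.06.

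Of 17 measured lipid droplet genes 10 were induced, against 21.8% of all genes, and 3 were repressed, against 16.4%. Trends were upward in 7, against 23.3%, and downward in 8, against 25.2%. A downward trend can leave a gene above its 0 h level, as for FAA1, at 1.20 at 8 h. The sterol ester lipase gene YEH1 stood at 4.60 at 8 h, TGL5 at 2.47 and TGL3, another triacylglycerol lipase gene, at 2.26. The perilipin-like gene PLN1 was lowest, at -1.47. The ratios of LDS1 and LDS2 at 8 h were higher than those of each of these 17 genes. LDS2 ranked 26 and LDS1 39 among all 5666 genes at that hour, so they would exceed most genes of any list. Each ratio is to the gene's own 0 h level, so these ratios do not compare amounts of RNA.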

How the data were processed

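Values of 7 time points were used, 1 deposited column each. Per the series design, the authors divided each gene's ratio to the RNA mix by its ratio at 0 h and took log2; per the labels the time point carried Cy5 and the mix Cy3. The sources used here do not say how cultures, backgrounds or arrays were combined, corrected or normalized. The deposited log2 values were used unchanged. Because each ratio is divided by the 0 h one, an error there moves a gene's whole course up or down.

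The 475 of 6141 rows without a value were left out. Names and neighbours came from the RefSeq table of the R64 assembly, which matched 5655 rows. Trends were fitted with limma 3.58.1 in R 4.3.3 over all 5666 genes, with 4 residual degrees of freedom plus 2.35 from moderation. In simulated data 200 of the 5666 genes were given a straight-line change over the course, with independent scatter. There the trend test recovered 25.9% of changes of 1, 69.6% of changes of 2 and 84.1% of changes of 3 on the log2 scale. Late steps such as those of DIT1 and SPS100, and a larger share of changed genes, were not simulated, so these rates do not carry over to them. Named are all members, the 2 most alike genes of each, up to 3 highest and 1 lowest genes of each list at 8 h, the annotated neighbours and landmark genes; others were named after their values were seen. Members and lists were chosen with earlier results of these data known. Promoter motifs and protein alignments were planned and not run, since no sequences were used here. The number of arrays limits the precision.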

Additional observations from a re-analysis of the deposited data

How the results depend on the processing

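With 1 value per time point, only the scatter around a curve could be tested, and whether time points share errors was not tested. No paired analysis was possible because each time point has 1 column. SPS100 and RRT8 lost the induced call at a log2 limit of 2 and with ratios to 1 h, and RRT8 with scaled columns. The count of induced members was 7 to 9 and that of upward trends 6 to 9 under every alternative, except 4 upward trends at an adjusted p of 0.01. Over all genes limma called 1320 upward and 1427 downward trends, against 341 and 410 at that limit, 669 and 819 without the 2 h column, 687 and 718 without the 6 h column, and 1011 and 862 with scaled columns. Over all genes 1236 were induced and 932 repressed, against 495 and 185 at a log2 limit of 2 and 1109 and 603 with ratios to 1 h. Leaving out 1 time point gave 6 to 9 upward trends and 1 downward trend. With 1 time point enough for the rule, 2 members were repressed (YGP1 and DTR1), and with columns scaled to the same SD 0 members had a downward trend by limma, where YGP1 had an adjusted p of 0.0997. The trend of SPS100 turned downward without the 8 h column, and its adjusted p lay between 0.0261 and 0.279 with 1 time point left out. By the last crossing of 50% of the highest linear ratio, midpoint hours were 6.91 h for DIT1, 6.45 h for DIT2, 4.42 h for LDS1 and 4.37 h for LDS2. They were 2.36 h for RRT8, which had been above that level at 1 h and dropped back, and 4.84 h for OSW1. The first crossing of a log2 ratio of 2 came at 5.26 h for DIT1, 4.08 h for DIT2, 7.32 h for SPS100, 3 h for LDS2 and 3.69 h for OSW1, and RRT8 never reached it. RRT8 moved to 4.22 h with ratios to 1 h and to 2.74 h with scaled columns, and OSW1 to 2.94 h with scaled columns. SPS100 minus YGP1 was 3.70 at 5 h and 5.14 at 8 h with ratios to 1 h, and 4.60 and 5.65 with scaled columns. The spread of LDS1, LDS2 and RRT8 was 5.78 at 5 h and 5.27 at 8 h with scaled columns. The cause of these shifts was not tested.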

Other observations

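Few genes kept increasing as late as DIT1. An increase of 1 or more on the log2 scale both from 5 h to 6 h and from 6 h to 8 h was found in 8 genes, or 0.141% of all genes, listed here after their values were seen. They were DIT1, DIT2, YDL218W, YLR012C, YOL053C-A, SDD1, GID10, which encodes a substrate receptor of the GID ubiquitin ligase, and the hexose transporter family gene HXT10. YDL218W was at 0.39 at 5 h, 2.74 at 6 h and 6.52 at 8 h, and HXT10 at 4.95, 6.10 and 7.93. Among the 1236 induced genes, those with a later midpoint hour than DIT1 were SPS100, YDL218W (6.28 h), ICS2 (6.19 h), GID10 (6.07 h), the glutamine synthetase gene GLN1 (6.00 h) and LPX2 (5.97 h).

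Genes annotated beside the members were looked at as well. Of 16 neighbours that are not members themselves, 3 were induced, against 21.8% of all genes, and 1 was repressed, against 16.4%, and their median at 8 h was -0.095. URH1 beside DIT2 ranged from 0.69 to 1.19, and PSK2 beside LDS2 rose to 1.65 at 8 h (adjusted p = 0.0123 by limma). NRS1, beside OSW2 on the same strand, stood at 3.55 at 1 h, 1.33 at 2 h and -0.18 at 8 h, while OSW2 stood at 0.78, 0.66 and 6.28 at those hours. The repressed one was the ribosomal protein gene RPS6B beside DTR1, at -2.82 at 1 h and -1.70 at 8 h. PSK1 beside LDS1 ranged from -0.36 to 0.14, and the row YHR139C-A next to SPS100 stood at -0.07 at 8 h. The row YDR401W, numbered next to DIT2 and not annotated in the R64 table, stood at 3.43, 4.19 and 5.83 at 5, 6 and 8 h, against 4.40, 5.40 and 6.89 for DIT2, and whether its probe reads RNA of DIT2 was not tested.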
